A study of Mus musculus with 121 samples.

Results

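Striatal RNA was compared between mice that carry the Gdnf cHyper allele on both chromosomes (HOM) and wild-type mice (WT), all of which had received AAV-Cre into both striata, across all genes with at least 1 cpm (read counts scaled to the size of the library) in at least 3 libraries. The libraries were taken by their labels for model, region and genotype, which gave 7 HOM and 7 WT libraries, 14 of the 121 of the series, each from a different mouse. The 7 heterozygous (HET) striatal libraries were in the same fit and are given beside them.

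The series measures poly(A) RNA from prefrontal cortex (PFC), striatum (STR) and substantia nigra (SN) in 2 mouse models in which Cre raises the output of the mouse's own Gdnf gene. In the cHyper allele (also labelled cKU) an inverted bovine growth hormone polyadenylation signal, flanked by recombination sites, lies just after the Gdnf stop codon, and Cre turns it around so that the transcript ends there without its native 3' untranslated region. The question the striatal comparison addresses is what a rise of Gdnf started in adulthood, at the site of injection, does to the tissue's RNA.

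All animals were male, of a mixed 129Ola, ICR and C57bl6 background, and HOM, HET and WT mice carried 2, 1 and 0 cHyper alleles. AAV5-Cre was given at 3 to 5 months of age and tissue was taken 2 months later, at 5 to 7 months. The WT mice also received the virus, so that injection and Cre are shared by all 3 genotypes. Recombination reaches only cells that the virus entered, and the share of such cells in each sample is not given. The study used 2 sets of injection coordinates, and the labels do not say which of them a mouse received. In the other model, Nestin-Cre, Cre acts from the embryo. Its mice, compared near the end of the results, are given as 2 months old and were not injected.

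GDNF is a secreted survival factor for dopamine neurons, which signals through the co-receptor GFRA1 and the receptor tyrosine kinase RET. In adult striatum it is made mainly by a sparse set of interneurons, while RET sits largely on the dopamine axons that arrive from the midbrain. The bulk of striatal RNA comes from projection neurons of the direct pathway, marked by Drd1, and of the indirect pathway, marked by Drd2 and Adora2a, together with oligodendrocytes, astrocytes and microglia.

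WT libraries held 13951371 to 21788649 counts with a median of 17623526. HOM libraries held 17339496 to 24260013 counts with a median of 17617192, and HET libraries 16281443 to 23368476 with a median of 18802412. At this depth 14655 of 24412 genes passed the filter, and the standard error of the HOM minus WT log2 fold change had a median of 0.074, with a 10th percentile of 0.043 and a 90th percentile of 0.21.

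The tissue label fitted the markers. The dopamine-signalling phosphoprotein gene Ppp1r1b stood at 1633 to 2423 cpm in WT and 1959 to 2554 cpm in HOM libraries, and the enkephalin precursor Penk at 1299 to 1948 and 1524 to 1946 cpm. Summed over 24 genes shared by both kinds of projection neuron, the level was 18817 to 24578 cpm in WT and 19913 to 23198 cpm in HOM libraries. All 14 libraries were thus rich in striatal neuron RNA, and the genotypes overlapped almost fully.

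Some libraries stood apart. Ttr, the transthyretin gene that marks choroid plexus, was at 5476 and 7605 cpm in WT mice M3588 and M3585, at 4617 and 6102 cpm in HOM mice M3607 and M3690, and at 4853 and 6529 cpm in HET mice M3750 and M3610, against 19.7 to 245 cpm in the other libraries. Each genotype held 2 such libraries. The library of WT M3677 had the highest summed level of major histocompatibility complex (MHC) genes, 845 cpm, against 257 to 354 cpm in the other WT and 259 to 326 cpm in the HOM libraries. The library of HOM M3687 was the highest for 2 genes of cortical excitatory neurons, the transcription factor gene Neurod6 at 21.1 cpm and the vesicular glutamate transporter gene Slc17a7 (chosen after its values were seen) at 120 cpm, against next highest HOM values of 4.004 and 54.4 cpm. Several list counts are given again without these libraries. Over the whole list of cortical excitatory neuron genes M3687 had the highest mean log2 level (4.53, next 4.24 in HOM M3567), whereas in the summed cpm, where a single gene has the largest part, it (2689 cpm) was below HOM M3567 (2814 cpm) and WT M3578 (2713 cpm).

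**Figure D1:**
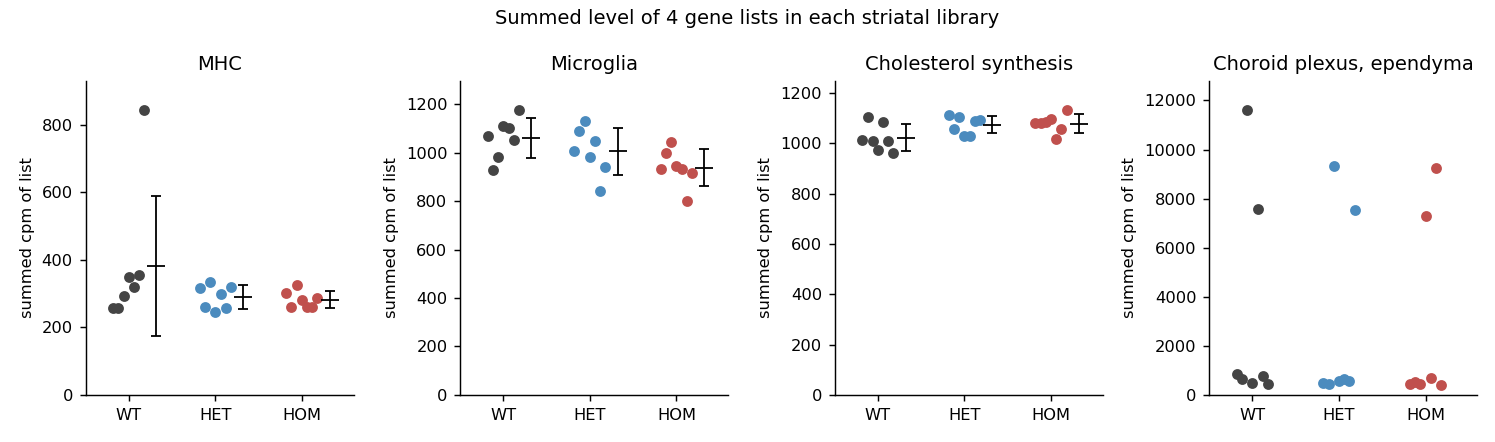
Summed level in cpm of the genes of 4 lists in each AAV-Cre striatal library, by genotype; points are libraries, and the bar beside them is the mean with its SD (not drawn for choroid plexus and ependyma, where libraries form separate groups). WT M3677 stands alone in the MHC panel at 845 cpm, and 2 libraries of each genotype stand far above the others for choroid plexus and ependyma.

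No gene passed the test between HOM and WT. By the edgeR quasi-likelihood test 0 of 14655 genes (percent called 0) had an adjusted p under 0.1, and the smallest adjusted p was 0.423. At an unadjusted p under 0.05 there were 671 genes (4.58 percent of those tested), of which 340 (2.32 percent) were higher in HOM and 331 (2.26 percent) lower. The median log2 fold change over all genes was -0.00011.

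Other tools gave other counts on the same libraries. The edgeR likelihood ratio test, which does not let each gene's own spread enter the test, called 175 genes (1.19 percent), 76 higher and 99 lower. DESeq2 called 5 (0.0341 percent), Polr2k, Thbs2 and Sub1 higher and Mas1 and Rec8 lower. With all regions of the AAV-Cre mice in 1 fit, 4 genes were called, Thbs2, Polr2k and Neurod6 higher and Kidins220 lower. Without the 6 libraries high in Ttr, again 0 genes were called, with 345 higher and 371 lower at an unadjusted p under 0.05, and with log2 Ttr as a covariate 1 gene, Thbs2, was called. Leaving out the WT library of M3649 also gave 1 call, Polr2k, and leaving out any other single HOM or WT library gave 0.

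HOM and WT libraries did not overlap for 8 genes higher in HOM (0.0546 percent of those tested) and 3 lower in HOM (0.0205 percent). For a single gene, a lack of overlap in either direction has a two-sided exact permutation p of 0.000583. Some of the 14655 genes would thus separate by chance, and whether the counts exceed chance was not tested. The 8 were Gdnf, Polr2k, Thbs2, Prdm9, Pes1, Col9a2, Morf4l2 and Ran, and the 3 were Trim30a, 2700038G22Rik and Wasf2. Pes1, Col9a2, Morf4l2, Ran and Wasf2 are named because of this count, after their values were seen.

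Gdnf itself (Entrez 14573, chr15:7810048-7837580 in mm10) had no overlap between the genotypes, with HET mice in between. It stood at 5.49 cpm in the lowest, 6.77 in the median and 7.46 in the highest WT library, and at 7.65, 8.63 and 10.04 cpm in the HOM libraries. Every HOM library was thus above every WT library, by a narrow margin. The mean was 6.62 ± 0.711 cpm (SD, n = 7) in WT and 8.71 ± 0.898 cpm (SD, n = 7) in HOM, 1.32 times as high.

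The log2 fold change of Gdnf was 0.40 (SE 0.094), the gene ranked 10th by p, and its edgeR adjusted p over all genes was 0.504, with HOM above the WT mean in 7 of 7 libraries. Over 25 settings of the processing the adjusted p ran from 0.122 to 1, so Gdnf was not called in any of them. Leaving out single libraries gave log2 fold changes of 0.36 to 0.43. Taken as a single value, the log2 cpm of Gdnf gave a two-sided exact permutation p of 0.000583, the smallest that the 3432 arrangements of the libraries allow.

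HET libraries held 6.42, 7.46 and 9.50 cpm of Gdnf at the lowest, median and highest, with a mean of 7.60 ± 1.05 (SD, n = 7). They overlapped both other genotypes, and 5 of 7 lay above the WT mean. The log2 fold change of HET against WT was 0.20 (SE 0.094, adjusted p 1.00, edgeR). The count of Gdnf covers exons of 4867 bases in all. Its annotated transcript has a 3' untranslated region of 2746 bases of 3674 exon bases, most of which recombined transcripts lack, so equal numbers of recombined and native transcripts would not give equal counts, and by how much was not tested.

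**Figure D2:**
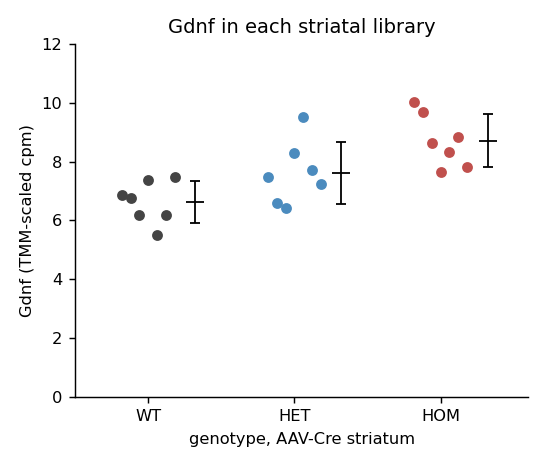
Gdnf in TMM-scaled cpm in each AAV-Cre striatal library, by genotype; points are libraries and the bar beside them is the mean with its SD (7 libraries a genotype). The 7 HOM libraries sit between 7.65 and 10.04 cpm, all above the highest WT library at 7.46 cpm.

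Striatal RNA of the receptors that GDNF uses, chosen after their values were seen, overlapped widely between the genotypes. RET protein on the axons from the midbrain was not measured. Gfra1, the GDNF-binding co-receptor, stood at 46.1, 56.7 and 72.3 cpm (lowest, median, highest) in WT and 47.3, 57.9 and 65.3 cpm in HOM. Ret, the signalling receptor, stood at 3.55, 12.0 and 16.7 cpm in WT and 6.32, 10.6 and 15.3 cpm in HOM. Both ranges overlapped almost wholly, with log2 fold changes of -0.02 (SE 0.091) for Gfra1 and -0.20 (SE 0.27) for Ret. Of 13 listed ligands and receptors of the family, 9 passed the filter, 0 were called by edgeR, and 1, Gdnf, had an unadjusted p under 0.05. Their median log2 fold change was 0.06.

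Dopamine and adenosine receptors were also level. Adora2a, the adenosine receptor of indirect pathway neurons, stood at 353, 432 and 503 cpm in WT and 363, 444 and 519 cpm in HOM. Drd1 stood at 271, 297 and 357 cpm in WT and 294, 317 and 355 cpm in HOM, and Drd2 at 174, 224 and 239 cpm in WT and 186, 210 and 234 cpm in HOM. For all 3 the HOM and WT libraries were intermixed. The log2 fold changes were 0.04 (SE 0.081) for Adora2a, 0.04 (SE 0.064) for Drd1 and 0.01 (SE 0.074) for Drd2, each with an edgeR adjusted p of 1.00. Of the 12 dopamine and adenosine receptor genes tested, 0 had an unadjusted p under 0.05, as did 0 of 9 direct pathway, 0 of 9 indirect pathway and 0 of 24 shared projection neuron genes.

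Among 10 tested genes of dopamine axons and dopamine turnover, 0 were called by the quasi-likelihood test. At an unadjusted p under 0.05 there were 3, all higher in HOM (against 2.32 percent of all genes), among them Slc18a2 and Nr4a2. Slc18a2, which encodes the transporter that loads dopamine into vesicles, stood at 0.858, 1.06 and 1.59 cpm in WT and 1.08, 2.09 and 2.34 cpm in HOM. The lowest HOM library lay within the WT range and the others above it. The log2 fold change of Slc18a2 was 0.77 (SE 0.25, adjusted p 0.973, edgeR), with HOM above the WT mean in 6 of 7 libraries.

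Nr4a2, a nuclear receptor gene needed by midbrain dopamine neurons and also expressed in cortex, stood at 0.858, 1.33 and 3.35 cpm in WT and 1.26, 1.75 and 6.44 cpm in HOM. Only 4 of 7 HOM libraries were above the WT mean, so that the log2 fold change of 0.91 (SE 0.43, adjusted p 1.00) came from a few high libraries. Th, the tyrosine hydroxylase gene that sets the pace of dopamine synthesis, was at 7.47, 7.99 and 9.57 cpm in WT and 6.62, 9.02 and 11.3 cpm in HOM, with a log2 fold change of 0.09 (SE 0.11). Its HOM libraries spread over and beyond the WT range at both ends.

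The genes with the smallest p were mostly low in abundance and none was called by the quasi-likelihood test. Polr2k (Entrez 17749, chr15:36174010-36177012) encodes a small subunit shared by the nuclear RNA polymerases and ranked 1st. It stood at 1.26, 2.11 and 3.13 cpm in WT and 3.45, 4.06 and 4.34 cpm in HOM. The 7 HOM libraries lay close together and all above the highest WT library. The log2 fold change was 0.92 (SE 0.175), the edgeR adjusted p was 0.423, and over 25 settings it ran from 0.00576 to 0.820. Without WT M3649, the WT library with the most Polr2k, the adjusted p was 0.0399.

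Thbs2 (chr17:14665500-14694262) encodes thrombospondin 2, a secreted matrix protein. It stood at 2.23, 3.96 and 5.82 cpm in WT and 6.32, 7.41 and 12.1 cpm in HOM, with no overlap. The HOM libraries of M3690 and M3607, both high in Ttr, were the highest in Thbs2 at 12.1 and 11.02 cpm, and WT M3585, also high in Ttr, was the highest of the WT libraries. The log2 fold change was 1.11 (SE 0.24, adjusted p 0.504, edgeR), and over 25 settings the adjusted p ran from 2.2e-06 to 0.820. Leaving out single libraries gave log2 fold changes of 1.00 to 1.23, and the fit with log2 Ttr as a covariate gave 1.22 with an adjusted p of 0.0299.

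Mas1 (chr17:12838841-12868143) encodes a receptor of the renin-angiotensin system. It stood at 3.66, 6.96 and 9.30 cpm in WT and 1.02, 2.90 and 5.59 cpm in HOM. WT M3585 lay within the HOM range and the other WT libraries lay above every HOM library. HOM minus WT gave a log2 fold change of -1.30 (SE 0.29, adjusted p 0.504, edgeR), with 7 of 7 HOM libraries below the WT mean, and the adjusted p over 25 settings ran from 2.3e-08 to 0.887.

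Trim30a (chr7:104409026-104465193), an interferon-inducible gene of the tripartite motif family, stood at 2.71, 3.32 and 4.07 cpm in WT and 1.75, 2.18 and 2.62 cpm in HOM. The genotypes did not overlap, though the gap between them was small. Its log2 fold change was -0.61 (SE 0.13, adjusted p 0.504, edgeR), and the adjusted p over 25 settings ran from 0.103 to 0.820.

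Sub1 (chr15:11981339-11996007), which encodes a transcription coactivator, was the most abundant of the leading genes higher in HOM, with 174, 190 and 212 cpm in WT and 195, 228 and 247 cpm in HOM. A single HOM library lay inside the WT range above its median. HOM minus WT came to a log2 fold change of 0.24 (SE 0.054, adjusted p 0.504, edgeR), and over 25 settings the adjusted p ran from 0.0493 to 0.928.

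Kidins220 (chr12:24974932-25059697), a membrane scaffold of neurotrophin receptors, stood at 393, 450 and 533 cpm in WT and 339, 369 and 396 cpm in HOM. The highest HOM libraries just reached the lowest WT libraries. In the fit its log2 fold change was -0.29 (SE 0.069, adjusted p 0.527, edgeR), with an adjusted p of 0.0083 to 0.990 over 25 settings.

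Rec8 (chr14:55618166-55625395), a cohesin gene of meiosis, had counts of only 0 to 4 in the HOM libraries and of 1 to 204 in the WT libraries. WT M3588 alone held 204 counts (10.7 cpm), and of the other WT libraries 2, with 1 and 2 counts, lay within the HOM range while the rest held up to 27. In the fit Rec8 had a log2 fold change of -4.66 (SE 1.04, adjusted p 0.504, edgeR) and without WT M3588 it was -3.26. The adjusted p over 25 settings ran from 1.4e-30 to 0.887.

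The other genes chosen by rank were 6030458C11Rik and Prdm9 higher in HOM and Acsf3 and 2700038G22Rik lower, each with 7 of 7 HOM libraries on that side of the WT mean. 6030458C11Rik, a predicted gene, went from a WT mean of 45.6 ± 2.95 to a HOM mean of 52.9 ± 4.36 cpm (SD, n = 7 each). Prdm9, a histone methyltransferase gene of meiosis, was at 2.23 ± 0.437 and 3.42 ± 0.271 cpm, with no overlap. Acsf3, an enzyme gene of mitochondrial fatty acid synthesis, was at 19.5 ± 0.773 and 16.7 ± 1.36 cpm, and 2700038G22Rik, a noncoding gene, at 1.60 ± 0.363 and 0.800 ± 0.223 cpm. Their log2 fold changes were 0.21, 0.61, -0.22 and -0.99, with edgeR adjusted p values of 0.504, 0.504, 0.504 and 0.527.

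**Figure D3:**
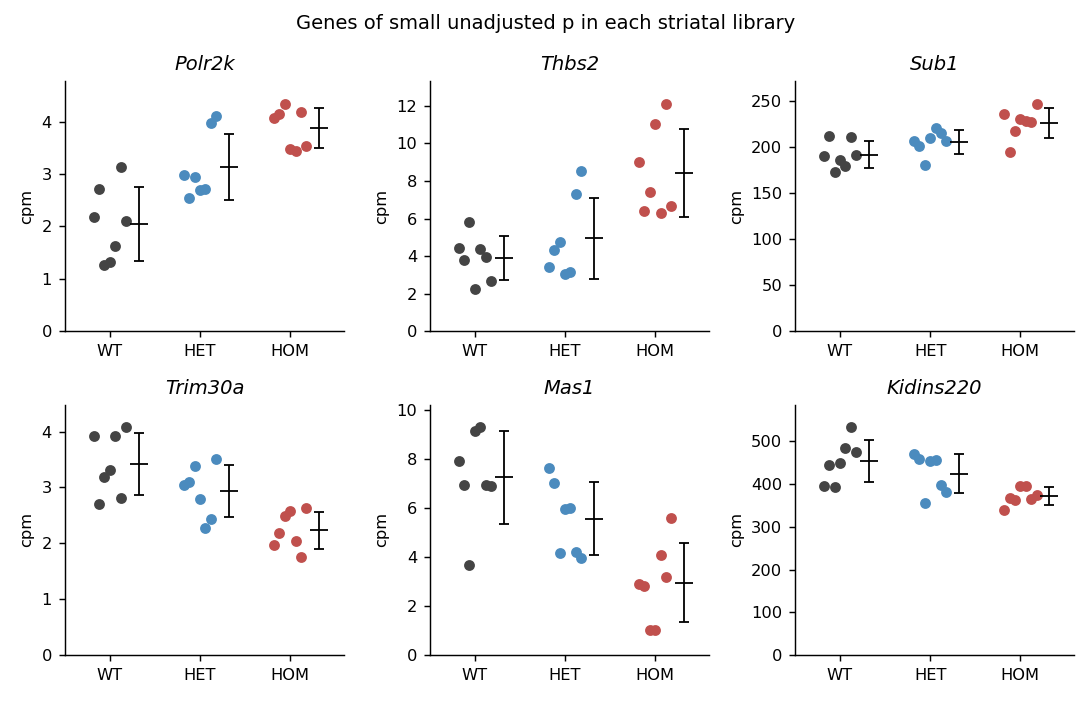
Cpm of 6 of the genes with the smallest p in each AAV-Cre striatal library, by genotype; points are libraries and the bar beside them is the mean with its SD (7 libraries a genotype). HOM libraries of Polr2k lie between 3.45 and 4.34 cpm, above every WT library, and HOM libraries of Trim30a between 1.75 and 2.62 cpm, below every WT library; none of the 6 was called by the quasi-likelihood test.

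The leading genes were not spread evenly over the genome. Of the 50 genes with the smallest p, 8 lie on chromosome 15, which holds Gdnf and 3.98 percent of the genes tested, and 8 on chromosome 17, which holds 5.01 percent. In windows of 10 Mb with at least 20 tested genes, the window from 10 to 20 Mb of chromosome 17 had the largest share of genes at an unadjusted p under 0.05, 14 of 49 (28.6 percent against 4.58 percent over all genes), 3 higher and 11 lower in HOM. It holds Thbs2, Mas1, Prdm9, Sod2 and Slc22a3, and 8 of the 50 genes with the smallest p. Leaving out single libraries gave 13 to 17 genes there. In HET mice, 3 of the 49 genes (6.12 percent) had an unadjusted p under 0.05, against 1.71 percent of all genes in HET. The next windows by share were 10 to 20 Mb of chromosome 12 (4 of 24 genes, 16.7 percent), 130 to 140 Mb of chromosome X (9 of 54, 16.7 percent, all higher) and 120 to 130 Mb of chromosome 8 (15 of 95, 15.8 percent, 4 higher and 11 lower). The windows were ranked by these values, so the share is a description.

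Sod2, the mitochondrial superoxide dismutase gene in that window, stood at 117, 122 and 147 cpm in WT and 129, 143 and 156 cpm in HOM. WT M3585 alone, at 147 cpm, lay within the HOM range, and the other WT libraries were below every HOM library. Sod2 had a log2 fold change of 0.19 (SE 0.050, adjusted p 0.836, edgeR), with an adjusted p of 0.203 to 1.00 over 25 settings. Slc22a3, an organic cation transporter gene that can carry monoamines, was chosen after its values were seen. It was at 19.4 ± 2.72 cpm in WT and 14.3 ± 1.63 cpm in HOM (SD, n = 7 each).

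On chromosome 15, 49 of the 69 genes within 10 Mb of Gdnf, itself not counted, passed the filter. At an unadjusted p under 0.05, 3 were higher and 3 lower (12.2 percent together against 4.58 percent over all genes), 0 were called by edgeR, and their median log2 fold change was -0.02. Without the libraries high in Ttr, 2 were higher and 2 lower (8.16 percent), and with log2 Ttr as a covariate 5 and 3. Sub1 and 6030458C11Rik were the higher genes with the smallest p, and Cdh6, a cadherin gene, the lower one, at 21.5, 24.4 and 28.6 cpm in WT and 14.97, 19.2 and 22.02 cpm in HOM. Rai14, an actin-associated gene of the same stretch, varied more between libraries, with 5.12, 6.23 and 11.3 cpm in WT and 4.61, 6.15 and 8.10 cpm in HOM and a log2 fold change of -0.23 (SE 0.21, adjusted p 1.00, edgeR).

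Farther along, in the window from 30 to 40 Mb of chromosome 15, the 5th by share, 7 of 45 genes (15.6 percent) had an unadjusted p under 0.05, among them Polr2k and the ribosomal protein gene Rpl30. Without WT M3578 the count there was 13. Rpl30 stood at 16.1, 36.6 and 51.7 cpm in WT and 41.2, 53.7 and 69.3 cpm in HOM, with 7 of 7 HOM libraries above the WT mean, a log2 fold change of 0.66 (SE 0.21) and an adjusted p of 0.973. Over the 77 tested genes of cytosolic ribosomal proteins the median log2 fold change was 0.004, with 1 higher and 1 lower at an unadjusted p under 0.05.

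The mice came from a mixed background, and whether sequence around the allele or elsewhere differs between HOM and WT mice was not tested.

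**Figure D4:**
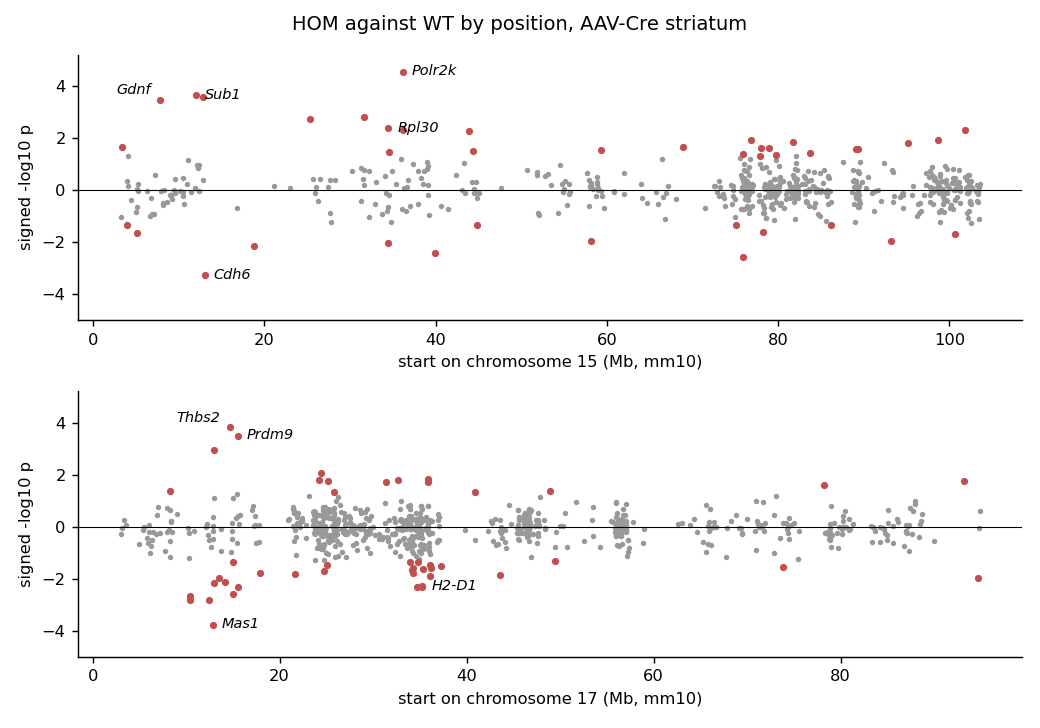
Every tested gene of chromosome 15 (top) and chromosome 17 (bottom) by its start in Mb of mm10; the vertical axis is minus log10 of the unadjusted p of HOM against WT, drawn upward for genes higher in HOM and downward for genes lower in HOM, and red marks an unadjusted p under 0.05. Gdnf, Sub1 and Polr2k reach high on chromosome 15, and 14 of the 49 genes between 10 and 20 Mb of chromosome 17 are red.

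Genes of microglia, the immune cells of the brain, leaned lower in HOM striatum. Of 22 microglia genes, all tested, 0 were called by edgeR, 7 had an unadjusted p under 0.05, all lower in HOM (31.8 percent against 2.26 percent of all genes lower), and 0 had a log2 fold change above 0. Their median log2 fold change was -0.19, against -0.00011 over all genes. In a bulk sample, fewer cells of a type and less RNA per cell cannot be told apart.

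Ly86, which encodes a partner of a toll-like receptor relative, had the smallest p of that list. It stood at 9.12, 13.5 and 20.7 cpm in WT and 8.34, 9.46 and 10.1 cpm in HOM, so that the HOM libraries were bunched at the low end of a broad WT range. Its log2 fold change was -0.57 (SE 0.15, adjusted p 0.836, edgeR), with an adjusted p of 0.016 to 1.00 over 25 settings.

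Defining microglia genes chosen after their values were seen were lower by small amounts. Cx3cr1, the fractalkine receptor gene, was at 67.1, 79.1 and 87.9 cpm in WT and 56.4, 72.3 and 77.5 cpm in HOM. P2ry12, a purine receptor gene of resting microglia, was at 39.4, 43.2 and 50.8 cpm in WT and 35.5, 37.4 and 42.8 cpm in HOM, and the complement gene C1qb was at 55.8, 62.2 and 76.3 cpm in WT and 40.8, 52.1 and 67.7 cpm in HOM. In each the genotypes overlapped while 6 or 7 of 7 HOM libraries lay below the WT mean. The log2 fold changes were -0.19, -0.20 and -0.35.

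Summed over the microglia list, WT libraries held 929, 1070 and 1178 cpm (lowest, median, highest), HET libraries 840, 1007 and 1130 cpm, and HOM libraries 800, 932 and 1043 cpm. The WT library with the most was that of M3677, and the HOM library with the least that of M3690, 1 of those high in Ttr. Leaving out single libraries gave 6 to 11 genes at an unadjusted p under 0.05, the 11 without WT M3578. Without the libraries high in Ttr the count was 4 and the median log2 fold change -0.14. The 16 tested genes of activated microglia held 0 at an unadjusted p under 0.05, with a median of -0.13, and of -0.02 without the libraries high in Ttr.

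MHC, interferon-response and complement genes had negative median log2 fold changes, none of their genes was called by the quasi-likelihood test, and much of this rested on WT M3677. Of 18 MHC genes tested, 0 were called by edgeR and 10 had an unadjusted p under 0.05, all lower, with a median log2 fold change of -0.44. Over all genes 2.26 percent were lower at that p. Without WT M3677 these were 2 and -0.15. Of 40 interferon-response genes, 12 were lower at an unadjusted p under 0.05 with a median of -0.33, and without WT M3677 3 with a median of -0.11. Of 18 complement genes, 5 were lower with a median of -0.27, and 3 without WT M3677 (of 16 that then passed the filter, median -0.18) or without WT M3585. Without the libraries high in Ttr, 9 MHC, 8 interferon-response and 4 complement genes were lower at an unadjusted p under 0.05. By the likelihood ratio test B2m, Cd74, H2-L, H2-D1 and C4b were called lower, of which Cd74 and H2-D1 were chosen after their values were seen. The summed MHC level in each library is in the plot of 4 gene lists.

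Single genes show the weight of that library. B2m, the light chain of MHC class I, was at 70.2, 79.0 and 183 cpm in WT and 61.9, 71.3 and 82.5 cpm in HOM, where the 183 cpm belonged to M3677. Cd74, the invariant chain of MHC class II, was at 10.8, 20.2 and 119 cpm in WT and 11.47, 13.2 and 23.4 cpm in HOM, again with M3677 at the top. Without M3677 the log2 fold change went from -0.38 to -0.14 for B2m and from -1.09 to -0.21 for Cd74. H2-L, a class I heavy chain gene that shares exons with H2-D1 on the same strand, went from -0.78 to -0.37. C4b, a complement gene, was at 96.3, 115 and 196 cpm in WT and 78.5, 91.1 and 107 cpm in HOM, and its log2 fold change went from -0.41 to -0.26.

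Of 27 reactive astrocyte genes tested, 0 were called by edgeR and 6 were lower at an unadjusted p under 0.05 (against 2.26 percent of all genes), with a median log2 fold change of -0.18. Without WT M3677 these were 3 and -0.11. Without the libraries high in Ttr, 3 were lower and 1 higher. Cd14, which encodes a co-receptor for bacterial lipopolysaccharide, had the smallest p, at 3.03, 3.66 and 4.33 cpm in WT and 2.49, 2.73 and 3.48 cpm in HOM. Gfap, the intermediate filament gene of astrocytes, was at 87.4, 184 and 273 cpm in WT and 111, 150 and 185 cpm in HOM, a wide and overlapping spread. Of the 17 general astrocyte genes, 0 had an unadjusted p under 0.05, with Slc1a2, the main glutamate transporter gene, at a log2 fold change of -0.06 (SE 0.061) and the gap junction gene Gja1 at -0.14 (SE 0.070).

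Genes of cholesterol synthesis leaned the other way. Of 24 genes, all tested, 0 were called by edgeR, 9 were higher at an unadjusted p under 0.05 and 0 lower (37.5 percent against 2.32 percent of all genes higher), and 20 had a log2 fold change above 0, with a median of 0.11. Fdps, the farnesyl diphosphate synthase gene, was at 20.5, 23.2 and 24.7 cpm in WT and 21.2, 26.7 and 28.8 cpm in HOM. The genotypes overlapped, with 6 of 7 HOM libraries above the WT mean. The log2 fold change of Fdps was 0.17 (SE 0.062), with an adjusted p of 1.00 by edgeR.

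The summed level of that pathway was 962, 1010 and 1105 cpm in WT, 1029, 1089 and 1113 cpm in HET and 1016, 1082 and 1134 cpm in HOM libraries, which overlapped. The count of 9 was 3 without WT M3677, also 3 without HOM M3749 and 6 without the libraries high in Ttr, while the median stayed between 0.09 and 0.12 when single libraries were left out. Oligodendrocytes use much cholesterol for myelin. Of 30 mature oligodendrocyte genes, 0 were higher and 2 lower at an unadjusted p under 0.05, against 2.26 percent of all genes lower. Only 4 of the 30 had a log2 fold change above 0 (median -0.09). Without WT M3677, 8 were lower and 2 above 0 (median -0.14). Without the libraries high in Ttr, 2 were lower and 7 above 0 (median -0.05). The myelin basic protein gene Mbp had a log2 fold change of -0.04 (SE 0.098) and the glycosyltransferase gene Galnt6 of -0.34 (SE 0.14). Of 12 oligodendrocyte precursor genes, 2 were lower (against 2.26 percent of all genes) and 1 was above 0 (median -0.08). The proteoglycan gene Cspg4 was at -0.14 (SE 0.052).

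Markers of tissue next to the striatum moved with a few libraries. Of 26 tested genes of cortical excitatory neurons, 4 were higher at an unadjusted p under 0.05 (against 2.32 percent of all genes) with a median log2 fold change of 0.10, and 0 without HOM M3687. Neurod6 stood at 0.589, 0.736 and 2.14 cpm in WT and 0.400, 1.42 and 21.1 cpm in HOM, and Slc17a7 at 12.2, 19.6 and 51.1 cpm in WT and 17.5, 28.3 and 120 cpm in HOM. Apart from M3687, the HOM libraries of M3749 and M3567 were also above the highest WT library for Neurod6, and M3567 was for Slc17a7, while the others were not. Without M3687 the log2 fold changes went from 2.21 to 0.92 for Neurod6 and from 0.88 to 0.42 for Slc17a7. Several WT libraries also moved the list count by more than 1.5 times, which ran from 0 to 7 when single libraries were left out (2 without M3677), and without the libraries high in Ttr it was 10. Those WT libraries were M3576, M3578, M3585, M3587, M3588 and M3677.

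Bdnf, a neurotrophin gene made by cortical neurons and scarce in striatal cells, was at 0.229, 0.471 and 0.841 cpm in WT, 0.608, 0.995 and 1.34 cpm in HET and 0.457, 1.25 and 3.86 cpm in HOM. The highest HOM library was M3687, and 6 of 7 HOM libraries were above the WT mean. Its log2 fold change was 1.48 (SE 0.39, adjusted p 0.832, edgeR) and 1.01 without HOM M3687. Cck, a neuropeptide gene of cortical neurons and some interneurons, was at 4.06, 8.24 and 14.5 cpm in WT and 8.05, 15.8 and 21.7 cpm in HOM, with a log2 fold change of 0.80 (SE 0.28, adjusted p 1.00). The part that cortical tissue has in these values was not tested.

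Of 23 tested genes of septum, pallidum and thalamus, 3 were higher at an unadjusted p under 0.05 (against 2.32 percent of all genes) and 0 lower, with a median of 0.06 that ran from 0.04 to 0.15 when single libraries were left out. The count was 5 without WT M3576, 1 without the libraries high in Ttr and 6 with log2 Ttr as a covariate. Peg10, a paternally expressed retroelement-derived gene, was at 47.3, 70.9 and 109 cpm in WT and 75.8, 98.3 and 122 cpm in HOM. Hap1, which encodes a huntingtin-binding protein, was at 189, 251 and 342 cpm in WT and 255, 290 and 347 cpm in HOM. In both, all 7 HOM libraries were above the WT mean but overlapped the upper WT libraries, with log2 fold changes of 0.42 (SE 0.15) and 0.25 (SE 0.12).

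The remaining lists had few genes at small p, though some leaned lower. Of 18 choroid plexus and ependyma genes 0 had an unadjusted p under 0.05, with Ttr at 72.0, 195 and 7605 cpm in WT and 19.7, 85.0 and 6102 cpm in HOM. Endothelial genes had 1 lower of 16 (2 above 0, median log2 fold change -0.09), and mural cell, fibroblast and meningeal genes 0 of 26 (4 above 0, median -0.13). Immediate-early genes had 1 higher of 24 (8 above 0, median -0.10), interneuron genes 1 higher of 19, and immature neuron and proliferation genes 0 of 20. Over all genes 49.9 percent had a log2 fold change above 0. Without the libraries high in Ttr the immediate-early genes no longer leaned lower, with 13 of 24 above 0 and a median of 0.03. The medians were then -0.05 for endothelial genes and -0.07 for mural cell, fibroblast and meningeal genes. Among leukocyte genes only 5 of 28 passed the filter, some are not in the table and the others were below it, and 1 of the 5 was lower at an unadjusted p under 0.05 (20 percent, against 4.58 percent of all genes in either direction): Mrc1, a mannose receptor gene of perivascular macrophages, at 1.29, 2.30 and 2.51 cpm in WT and 0.872, 1.45 and 1.77 cpm in HOM. Antioxidant genes had 1 higher of 27, which is Sod2, respiratory complex genes 1 higher of 96 and Parkinson disease genes 1 higher of 15, the ubiquitin hydrolase gene Uchl1 (log2 fold change 0.13, SE 0.054).

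The HET striatum showed fewer genes at small p. By the edgeR quasi-likelihood test 0 of 14655 genes (percent called 0) were called between HET and WT, with 251 (1.71 percent) at an unadjusted p under 0.05, and 56 were called by the likelihood ratio test and 0 by DESeq2. The comparison shares its WT libraries with that of HOM, so the values are set side by side only. For Polr2k, Thbs2, Mas1 and Trim30a the HET log2 fold changes were 0.61, 0.36, -0.39 and -0.22, against 0.92, 1.11, -1.30 and -0.61 in HOM. HET means lay between those of WT and HOM for these 4 genes, as they did for Gdnf. The 4 genes were picked by their small p between HOM and WT, which favours such an order. The order therefore does not show an effect of the number of alleles. For the microglia list the HET median log2 fold change was -0.07.

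The same mice gave PFC and SN libraries, with 8 HOM mice there because 1 HOM mouse had no striatal library. Whether the HOM effect in striatum differed from that in PFC was tested by an interaction in 1 fit of 15442 genes. By edgeR 0 genes passed (percent called 0), with 712 at an unadjusted p under 0.05, 41 called by the likelihood ratio test, and 0 called with mouse as a block. The 3 genes of smallest p were Cdh10, Cdh6 and Gadd45a, with differences in log2 fold change of -0.40, -0.64 and -0.81 and adjusted p values of 0.259, 0.281 and 0.529. Cdh6 and Cdh10 are cadherin genes of chromosome 15, and Gadd45a is a growth-arrest gene induced by stress.

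Gdnf was far lower in PFC, at a mean of 0.816 cpm in WT and 0.852 cpm in HOM, where its log2 fold change was 0.12 (SE 0.37). The difference between the effects was 0.27 (SE 0.41, adjusted p 1.00), so that with so few counts in PFC no difference was detectable. In PFC of the same animals the leading striatal genes had log2 fold changes of 0.51 for Polr2k, 0.35 for Thbs2, 0.22 for Sub1, 0.26 for 6030458C11Rik, 0.49 for Prdm9, -0.39 for Mas1, -0.55 for Trim30a, -2.24 for Rec8, -0.12 for Acsf3, -0.07 for Kidins220 and -0.44 for 2700038G22Rik. In SN they were 0.55, 0.41, 0.14, 0.17, 0.67, -0.72, -0.05, -1.82, -0.11, -0.16 and -0.38. None of these genes differed between striatum and either region at an adjusted p under 0.1. How far regions of the same mice would share signs by chance was not tested. For Sod2 and Rai14 the PFC values were 0.44 (adjusted p 0.0564) and -0.49 (adjusted p 0.0313), and their differences from striatum were -0.26 (adjusted p 0.993) and 0.25 (adjusted p 1.00).

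Against SN, 1 gene of 15442 (0.00648 percent) passed the interaction test by edgeR, Ankrd63, an ankyrin repeat gene of forebrain neurons, with a difference of 3.22 (SE 0.64, adjusted p 0.0704). In striatum it was level, at 162, 189.7 and 245 cpm in WT and 179.7, 201 and 224 cpm in HOM on the scale of the joint fit. In SN the WT libraries held 0.290, 0.439 and 17.2 cpm and the HOM libraries 0.0878, 0.315 and 0.894 cpm. The 17.2 cpm belonged to the single SN library of WT M3587, and without that library 0 genes passed, with 408 at an unadjusted p under 0.05. With mouse as a block 0 passed, the adjusted p of Ankrd63 being 0.949, while the likelihood ratio test called 148. After Ankrd63 the smallest p values were those of Bdnf and of Atp2b4, a calcium pump gene, with differences of 1.74 and 0.53 (adjusted p 0.411 and 0.758).

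Against the Nestin-Cre striatum, where Cre acts from the embryo in neural precursors and the mice differ in age and were not injected, 3 of 14857 genes (0.0202 percent) passed the interaction test by edgeR, and 259 by the likelihood ratio test. Trim30a differed by -1.33 (adjusted p 0.0757), with a mean of 3.44 cpm in WT and 2.25 in HOM here and of 1.62 and 2.66 cpm there, on the scale of the joint fit. Gdpd3, a phospholipase gene, differed by -4.53 (adjusted p 0.061), and here stood at 5.77, 12.3 and 18.2 cpm in WT and 0.687, 6.11 and 14.7 cpm in HOM. In Nestin-Cre mice Gdpd3 was at 0.171 to 0.584 cpm in WT and 0.752 to 9.83 cpm in HOM libraries. Model, age, injection and breeding differ together between the 2 sets of mice and cannot be told apart.

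Gdnf in the Nestin-Cre striatum was at 5.82 ± 1.26 cpm in WT and 7.08 ± 1.42 cpm in HOM (SD, n = 6 each), a log2 fold change of 0.28 (SE 0.19, adjusted p 0.784, edgeR). The difference from the AAV-Cre striatum was 0.11 (SE 0.21, adjusted p 0.883). Both models thus had HOM means above WT means, and the data did not separate the size of the effect between them.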

How the data were processed

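RNA was measured in 121 libraries, of which the 21 AAV-Cre striatal libraries (7 WT, 7 HET, 7 HOM) were fitted here, each as 1 sample. The table deposited by the authors holds raw read counts per gene and library, made by their methods with bcl2fastq 2.20.0.422, STAR 2.5.2b on mm10 and featureCounts 1.5.1 in annotated exons; its lengths are other values deposited by the authors, the summed exon bases of a gene. Values were taken as counts with no prior normalization, and 0 value columns were left unused.

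In R 4.3.3 with edgeR 4.0.16, genes reaching 1 cpm in 3 or more libraries were kept, scaled by TMM and tested with the quasi-likelihood F test (legacy mode, trended dispersion), two-sided; a gene was called when its p, adjusted over all genes by Benjamini and Hochberg, was under 0.1. A standard error is the log2 fold change divided by the root of F. Alternatives used the likelihood ratio test, DESeq2 1.42.0, other scalings and filters, other sets of libraries and each library left out. Regions were paired by mouse number. The pairing was checked by correlating residual log2 cpm: the median was 0.236 between STR and PFC of the same mouse and 0.186 between STR and SN, against -0.0099 and -0.0017 between different mice (21 mice). The fit was also run on simulated data, and no outcome of that run is reported or used here.

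Genes were named by rule, starting with Gdnf. Of called genes the most changed were to be taken, filled up to 6 in each direction by smallest p. The genes that filled up had every HOM library on 1 side of the WT mean. Adora2a, Drd1, Drd2, Th and Nr4a2 were taken because the study names them, and Sod2 and Rai14 were added beside these. From each list came the most abundant member and that of smallest p, and from each interaction the 3 of smallest p. Other genes, among them Gfra1, Ret, Cd74, H2-D1 and Slc17a7, were named after their values were seen. Members and lists were chosen with earlier results of these data known. For that reason lists have no test, and marker scores are given without a p. Leaving out libraries high in Ttr, the log2 Ttr covariate, leaving out chromosomes 15 and 17, and leaving out the SN library of M3587 were chosen after seeing the data, as were the list counts without WT M3677 and without HOM M3687. Results of some genes are not reported here.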

Additional observations from a re-analysis of the deposited data

Results flagged for a closer look

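Within each genotype's 7 striatal libraries, the gap of the highest or lowest library to its nearest neighbour was compared with the whole range, for the named genes and the summed marker lists. It was past the 95 percent limit of Dixon's test in 29 of 264 groups. For separate groups of normally spread values, chance flags about 1 in 20. These groups share libraries and genes, and some genes were named after their values were seen. The count therefore cannot be compared with that rate, and an excess over chance was not tested.

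WT M3677 was far above the other WT libraries for H2-L (89.7 cpm), H2-D1 (76.9), Cd74 (118.7), B2m (183.1) and C4b (195.6), and for the summed MHC (844.8) and interferon-response (534.8) lists. WT M3585 was the lowest WT library for Mas1 (3.66 cpm) and Uchl1 (382.9) and the highest for Sod2 (146.7), WT M3588 the highest for Rec8 (10.7), and WT M3649 the highest for Wasf2 (29.6).

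HOM M3687 was far above the other HOM libraries for Neurod6 (21.1 cpm), Slc17a7 (120.0) and Bdnf (3.86). HOM M3749 was the highest for 6030458C11Rik (62.0 cpm), Morf4l2 (167.0) and Gdpd3 (14.6), and HOM M3567 the lowest for the endothelial list (371.6).

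Among HET libraries, M3577 was the highest for H2-L (40.3 cpm), H2-D1 (35.1), Mrc1 (4.29) and Gdpd3 (18.4), M3652 the highest for Nr4a2 (5.00) and Cd14 (4.84), and M3676 the highest for the glucocorticoid-response list (1644). M3610 was the lowest for Drd1 (256.7) and the direct pathway list (920.1), and M3688 the lowest for Cx3cr1 (59.0).

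The HOM effect in AAV-Cre striatum differed by the interaction test from that in SN for Ankrd63 (3.22 on the log2 scale), which was not called with mouse as a replicate block or without the SN library of WT M3587, and from that in Nestin-Cre striatum for Gdpd3 (-4.53) and Trim30a (-1.33).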

How the results depend on the processing

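The count of 0 genes called between HOM and WT held with the newer quasi-likelihood mode, DESeq2 size factors, library size alone, only WT and HOM in the fit and a linear trend over alleles. It was 175 by the likelihood ratio test, 5 by DESeq2, 1 without a filter, 4 with all regions in the fit, 1 with log2 Ttr as a covariate (an alternative added after seeing the data) and 0 to 1 with single libraries left out; the cause was not tested. For HET against WT the likelihood ratio test gave 56. For the interactions it gave 41 (PFC), 148 (SN) and 259 (Nestin-Cre striatum), and the replicate block gave 0 for PFC and 0 for SN; leaving out the SN library of WT M3587 gave 0. Over 64 named genes and their 1599 alternative values, 1542 kept direction and side of the threshold, 41 crossed it in the same direction and 16, of 5 genes, turned. With log2 Ttr as a covariate Drd2 was at -0.0194 and Ankrd63 at -0.0045. With single libraries left out the log2 fold change ran from -0.0287 to 0.0450 for Drd2, -0.0113 to 0.0904 for Ankrd63, -0.0706 to 0.0411 for Gfra1, -1.25 to 0.61 for Ttr and -0.0825 to 0.0485 for Mbp. Depth limits genes near 1 cpm, where the standard errors are largest.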

Other observations

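Gm2093, a predicted gene on chromosome 15 (start 3996039 in mm10), the chromosome of Gdnf, was the 1 gene called when no filter on low counts was used. It had 5 to 15 counts in the WT libraries (median 10), 1 to 5 in the HET libraries (median 3) and 0 to 1 in the HOM libraries (median 1). Its counts were thus lower with the number of cHyper alleles and HOM and WT did not overlap, with a fitted log2 fold change of -3.98 (adjusted p 6.9e-05, edgeR). It was chosen after its values were seen.

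In 2 HET libraries, M3688 and M3750, Polr2k and Thbs2 sat with the HOM values. The library of M3750 is 1 of those high in Ttr. Polr2k was at 3.97 and 4.10 cpm in them against at most 2.99 cpm in the other HET libraries, and Thbs2 at 7.32 and 8.55 cpm against at most 4.76 cpm. Mas1 was at 4.199 and 3.98 cpm in them, within the HOM range, as was HET M3610 at 4.17 cpm. Other leading genes did not follow: Trim30a was at 3.51 cpm in M3750, the highest HET value and above every HOM library, and Gdnf was highest among HET libraries in M3676 (9.50 cpm).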
